A study of Mus musculus with 9 samples.

Results

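The elastic fibre genes described here are 10 genes that encode elastin, the microfibril proteins around it and the glycoproteins that join them: Eln, Fbn1, Fbln1, Fbln2, Fbln5, Mfap2, Mfap4, Mfap5, Emilin1 and Efemp1. They are a list of gene symbols, put together with earlier results of these data known, and all 10 were present among the 25526 names of the deposited expression table. Whole mouse lung was profiled by RNA sequencing in 3 groups, each of 3 mice by the labels. The first group received PepNzymeSOD-CAT, an inhaled polypeptide nanozyme with superoxide dismutase-like and catalase-like activity in its name, and is called nanozyme below. The second is a pulmonary fibrosis model and the third is normal lung. The labels do not give strain, age, sex, the inducer of fibrosis, the dose or the time of sampling, and they do not say in words that the nanozyme mice also carried the fibrosis model. The values are FPKM, which scales sequenced fragments to transcript length and library total, so levels of different genes can be set side by side.

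Elastic fibres let the lung recoil after each breath. Fibroblasts and smooth muscle cells secrete tropoelastin, the product of Eln, which is laid down on a scaffold of fibrillin microfibrils and then joined into an insoluble network by lysyl oxidases. Some fibulins and EMILIN-1 guide this assembly, microfibrils also store latent TGF-beta, and proteases of neutrophils and macrophages can cut the finished fibre.

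Genes reaching 1 FPKM in 3 or more libraries were tested, which kept 14540 genes and all 10 elastic fibre genes. Changes are differences of log2(FPKM + 1) ± SE from limma, fitted over all 9 libraries, with Benjamini-Hochberg adjustment over the 14540 genes. A gene is called at an adjusted p under 0.05. Such changes understate those of low genes because of the added 1. Group levels are mean ± SD with n = 3. The labels give no date or batch, so a batch and the groups cannot be told apart.

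The libraries of a group were not alike. Sums of FPKM over all names ran from 443746 to 519772 per library. Nanozyme replicate 2 had the lowest value of its group at 48.1% of the tested genes and model replicate 2 at 48.1% as well. Normal replicate 3 lay between the other normal libraries at 53.4% of the tested genes, where 33.3% would be an equal share. It also lay near their mean: among the 927 tested genes at which normal replicates 1 and 2 differed over 2-fold, 37.6% had a value of normal replicate 3 between 0.4 and 0.6 of the way from one to the other. The same share was 5.38% to 15.1% for the other 8 libraries, each set between the other libraries of its group. Whether normal replicate 3 is a separate mouse could not be settled from these values, so n = 3 for normal lung counts libraries. The SD of normal lung and the p-values against it may rest on fewer mice and be too small, and counts without normal replicate 3 are given below. Lung epithelial transcripts were present in all libraries: Sftpc, encoding surfactant protein C, was between 6177 and 25163 FPKM. The sum of 6 markers differed between groups, at 34833 to 56596 FPKM in nanozyme, 17045 to 27052 FPKM in model and 81094 to 102390 FPKM in normal lung. The marker Scgb1a1 alone had 17044 to 25750, 5138 to 14018 and 56368 to 71115 FPKM in nanozyme, model and normal lung.

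Among the 10 elastic fibre genes, 1 rose and 2 fell in model relative to normal lung: Emilin1 rose, and Fbln1 and Mfap5 fell. In nanozyme relative to normal lung, Emilin1 alone was called, again higher. In nanozyme relative to model lung, 0 of the 10 were called by limma, and 1 of them, Fbln1, had an unadjusted p under 0.05. Over all tested genes, 40.1% were called in model vs normal lung (17.4% higher and 22.7% lower), 13.9% in nanozyme vs normal lung (8.39% higher and 5.50% lower) and 0% in nanozyme vs model lung. At an unadjusted p under 0.05 there were 6 of the 10 genes in model vs normal lung, 2 in nanozyme vs normal lung and 1 in nanozyme vs model lung, against 50.3%, 30.6% and 22.1% of tested genes. At the adjusted threshold, the share of elastic fibre genes called did not exceed the share of all tested genes in any of the comparisons. The split of all calls in model vs normal lung, 2525 higher and 3299 lower, was 2669 and 2252 with equal column sums and 3131 and 2514 with median-of-ratios scaling. In nanozyme vs normal lung it was 1220 higher and 800 lower, against 1326 and 556 with equal column sums.

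The direction of the estimates differed between genes. For model vs normal lung, 3 estimates were above 0 and 7 below, with a median of -0.83 against -0.12 over all tested genes. For nanozyme vs model lung, 7 were above 0 and 3 below, with a median of 0.66 against 0.09. In nanozyme vs normal lung, 4 were above 0 and 6 below, with a median of -0.25 against -0.01. The first and second of these share the model libraries and cannot be read as independent of each other.

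The outcome depended on single libraries. Without nanozyme replicate 2, Fbln5, Mfap5 and Efemp1 were called higher in nanozyme than in model lung, and 3167 or 21.9% of all tested genes were called. Without model replicate 2, the genes called in model vs normal lung were Fbn1, Mfap4 and Emilin1, all higher, against 33.9% of tested genes. Leaving out model replicate 3, normal replicate 1 or normal replicate 3 left Emilin1 as the 1 gene of the 10 called there, against 32.7%, 27.0% and 26.2% of tested genes, and leaving out normal replicate 2 left Mfap5 and Emilin1, against 30.0%. The number was 5 without model replicate 1, without nanozyme replicate 1 and without nanozyme replicate 2, against 37.6%, 39.4% and 45.3% of tested genes. Without normal replicate 3, Emilin1 was also the 1 gene called in nanozyme vs normal lung, against 5.12% of tested genes.

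**Figure D1:**
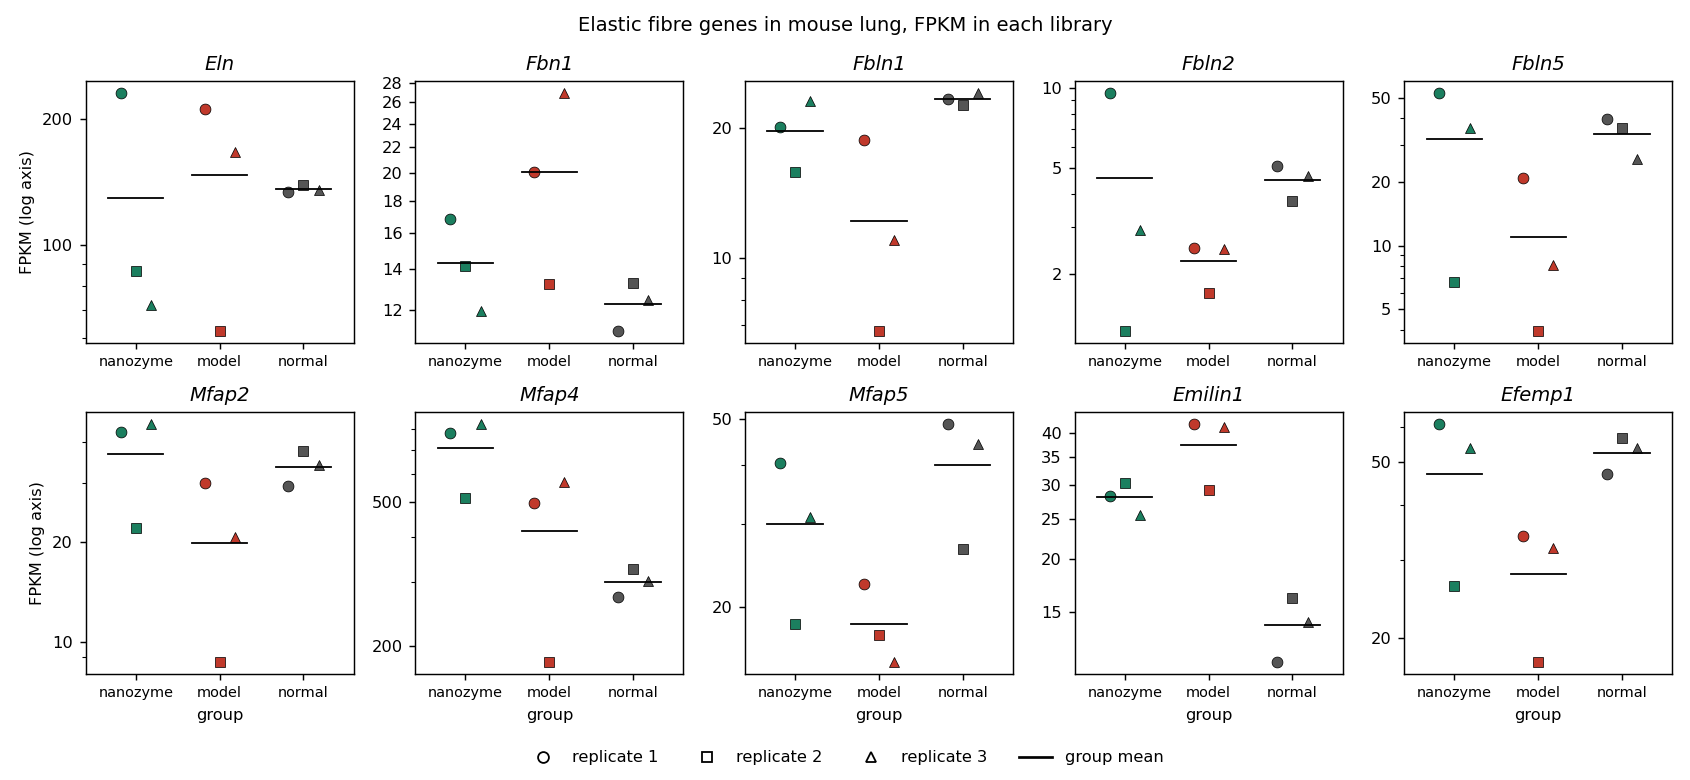
FPKM of each elastic fibre gene (log axis, a separate scale for each gene) in the 9 libraries, grouped as nanozyme, model and normal lung. Points are single libraries with 1 symbol per replicate number and lines are group means. Emilin1 is above 25 FPKM in all nanozyme and model libraries and under 17 FPKM in all normal libraries, whereas Eln spans more than 3-fold within the nanozyme and the model group.

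Eln encodes tropoelastin, the soluble precursor of elastin. It had 231, 86.8 and 72.0 FPKM in nanozyme replicates 1, 2 and 3, against 212, 62.5 and 167 FPKM in the model replicates and 134, 139 and 136 FPKM in the normal replicates. The normal libraries lay inside the range of both other groups. The groups differed in spread: the coefficient of variation was 67.6% in nanozyme and 52.1% in model lung, against 1.82% in normal lung, where replicate 3 lay between the other libraries. The change was -0.20 ± 0.52 in nanozyme vs model lung (adjusted p = 0.837), with a 95% interval from -1.39 to 0.98. In model vs normal lung it was -0.06 ± 0.52 (adjusted p = 0.935), with an interval from -1.25 to 1.12. A change of 2-fold in either direction therefore lies inside the model vs normal interval, and the data do not show that elastin mRNA stayed level. In the GENCODE vM21 annotation of GRCm38, Eln is a protein-coding gene on the minus strand of chromosome 5 from 134702593 to 134747323, and 282 bases of it overlap the antisense gene Gm30003, which the table does not list by that name.

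Fbn1 encodes fibrillin-1, the main structural protein of microfibrils. Its level was 16.9, 14.2 and 11.9 FPKM in nanozyme lung, against 20.04, 13.3 and 26.9 FPKM in model lung and 11.1, 13.3 and 12.5 FPKM in normal lung. Model replicates 1 and 3 were above all normal libraries, and model replicate 2 was inside their range. The difference between model and normal lung did not pass (0.61 ± 0.23, adjusted p = 0.0647), and without model replicate 2 it was 0.87 with an adjusted p of 0.0119, whereas without model replicate 3 it was 0.38 (adjusted p = 0.175). Its change in nanozyme vs model lung was -0.42 ± 0.23 (adjusted p = 0.312), with -0.19 without model replicate 3 and -0.67 without model replicate 2. Fbn1 lies on the minus strand of chromosome 2 from 125300594 to 125507993, and the gene Gm9913 on the other strand overlaps 2793 bases of it. Whether the counting used strand is not given in the sources used here, so reads of this pair cannot be told apart, nor those of the other overlapping genes named here.

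Mfap2 and Mfap5 encode the microfibril-associated glycoproteins MAGP-1 and MAGP-2, small proteins that bind fibrillin. Mfap2 had 42.7, 22.1 and 45.2 FPKM in nanozyme lung, against 30.1, 8.69 and 20.7 FPKM in model lung and 29.4, 37.6 and 34.0 FPKM in normal lung. Mfap5 had 40.3, 18.4 and 31.0 FPKM in nanozyme lung, against 22.4, 17.4 and 15.3 FPKM in model lung and 48.8, 26.5 and 44.3 FPKM in normal lung. All model values of Mfap5 were under all normal values, while those of Mfap2 overlapped through model replicate 1. Mfap5 fell in model vs normal lung (-1.05 ± 0.31, adjusted p = 0.0286), and this call ended when model replicate 2, model replicate 3, normal replicate 1 or normal replicate 3 was left out, with adjusted p-values up to 0.0966. For Mfap2 the same change was -0.88 ± 0.42 (adjusted p = 0.124), with -0.41 without model replicate 2 (adjusted p = 0.343) and -1.25 without model replicate 1 (adjusted p = 0.0446). The differences in nanozyme vs model lung were 0.94 ± 0.42 for Mfap2 and 0.62 ± 0.31 for Mfap5, with adjusted p-values of 0.231 and 0.272. Without model replicate 2 the Mfap2 estimate was 0.47, without nanozyme replicate 1 the Mfap5 estimate was 0.38, and without nanozyme replicate 2 Mfap5 was called at 0.93 (adjusted p = 0.0483).

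Mfap4 encodes a fibrinogen-domain glycoprotein that binds elastic fibres and collagen, and it was the most abundant of the 10 transcripts in each group. Its level was 779, 515 and 824 FPKM in nanozyme lung, against 497, 181 and 569 FPKM in model lung and 274, 328 and 303 FPKM in normal lung. All nanozyme values were above all normal values. The change in nanozyme vs normal lung was 1.20 ± 0.40 with an interval from 0.28 to 2.12, and it did not pass (adjusted p = 0.0817), although it did without model replicate 2 (adjusted p = 0.00895). Its change in model vs normal lung was 0.30 ± 0.40 (adjusted p = 0.568). Model replicate 2 was the 1 library of the model group under the normal range, and without it the change was 0.82 (adjusted p = 0.0240), whereas without model replicate 1 it was 0.0945 and without model replicate 3 it was -0.0024. The difference between nanozyme and model lung was 0.89 ± 0.40 (adjusted p = 0.233), and 0.38 without model replicate 2. Mfap4 lies on chromosome 11 from 61485431 to 61488900, and 89 bases of it overlap Mapk7 on the other strand, which had 7.36 to 12.8 FPKM.

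Emilin1 encodes EMILIN-1, a glycoprotein of the elastin-microfibril interface that also restrains the maturation of TGF-beta. It had 28.3, 30.4 and 25.5 FPKM in nanozyme lung, against 41.9, 29.3 and 41.2 FPKM in model lung and 11.4, 16.2 and 14.2 FPKM in normal lung. Every nanozyme and every model value was above every normal value, and the nanozyme range overlapped that of model lung only through model replicate 2 and nanozyme replicate 2. Emilin1 averaged 37.5 ± 7.12 FPKM in model and 13.9 ± 2.40 FPKM in normal lung, a rise of 1.36 ± 0.17 (adjusted p = 0.00101). Relative to normal lung, it rose in nanozyme lung by 0.97 ± 0.17 (adjusted p = 0.00943). Both calls use the same normal libraries and are not independent. The first call was kept under all 22 alternatives of processing and left-out libraries, with adjusted p-values up to 0.00650, and the second under 21 of 22, failing only the added requirement of a 2-fold change. Between nanozyme and model lung the difference was -0.39 ± 0.17 (adjusted p = 0.228).

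Groups that do not overlap were common over all genes. For model vs normal lung this held for 58.5% of tested genes (23.5% higher and 34.9% lower) and for 6 of the 10 elastic fibre genes, with Emilin1 higher and Fbln1, Fbln2, Fbln5, Mfap5 and Efemp1 lower. In nanozyme vs normal lung it held for 42.9% of tested genes (22.1% higher and 20.8% lower) and for Mfap4 and Emilin1. For nanozyme vs model lung it held for 16.4% of tested genes (10.6% higher and 5.83% lower) and for 0 of the 10.

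Emilin1 lies on the plus strand of chromosome 5 from 30913402 to 30921277, on the same chromosome as Eln. Its promoter is shown because Emilin1 was the 1 gene of the set called in both comparisons with normal lung, and that of Fbn1 because Emilin1 and Fbn1 were each other's nearest gene of the set in pattern over the 9 libraries. The windows are RefSeq sequences of GRCm38.p6 that run from 250 bases before the start site to 50 bases into the transcript, written 5′ to 3′ on the strand of the gene, and capitals mark matches to the motifs named after the sequences. The Emilin1 and Fbn1 windows lie wholly inside the GENCODE gene spans, so their start sites are not the outermost annotated ones.
Emilin1, plus strand, chr5:30913536-30913835: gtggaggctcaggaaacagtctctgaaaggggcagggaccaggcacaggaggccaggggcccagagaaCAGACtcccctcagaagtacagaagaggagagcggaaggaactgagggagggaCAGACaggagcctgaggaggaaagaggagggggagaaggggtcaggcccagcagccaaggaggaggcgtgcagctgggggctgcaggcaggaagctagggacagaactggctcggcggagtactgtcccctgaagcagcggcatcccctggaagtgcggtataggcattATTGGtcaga
Fbn1, minus strand, chr2:125506389-125506688: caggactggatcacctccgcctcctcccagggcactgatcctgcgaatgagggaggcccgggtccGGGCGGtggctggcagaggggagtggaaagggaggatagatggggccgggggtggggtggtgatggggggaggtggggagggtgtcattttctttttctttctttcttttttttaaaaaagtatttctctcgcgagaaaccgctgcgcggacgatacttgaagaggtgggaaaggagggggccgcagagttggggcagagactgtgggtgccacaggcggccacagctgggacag
The motifs searched on both strands were the TATA box with the letters TATAAA, the CCAAT box, the GC box with the letters GGGCGG, the AP-1 element with the letters TGANTCA and the SMAD element with the letters CAGAC. The Emilin1 window holds CAGAC at positions -182 and -129 from the start site and CCAAT on the other strand at position 41. The Fbn1 window holds GGGCGG at position -185. These letters are common: CAGAC stands in 49.6%, CCAAT in 37.4% and GGGCGG in 35.7% of all 32851 promoter windows of that length.

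The fibulins bind elastin or basement membrane, and some of them place tropoelastin on microfibrils. Fbln5, encoding fibulin-5, which mice need for elastic fibre assembly, had 52.6, 6.73 and 36.0 FPKM in nanozyme lung, against 20.8, 3.96 and 8.13 FPKM in model lung and 39.5, 36.1 and 25.6 FPKM in normal lung. It had the widest distance between group means of the 10 genes, 1.78 on the log2 scale. All model values were under all normal values, and nanozyme replicate 2 lay inside the model range while nanozyme replicates 1 and 3 lay above it. The change in model vs normal lung was -1.78 ± 0.74 and did not pass (adjusted p = 0.0872), and without nanozyme replicate 2 the same difference had an adjusted p of 0.0200. Without model replicate 1 it was -2.34 (adjusted p = 0.0458) and without model replicate 2 it was -1.28 (adjusted p = 0.245). The difference between nanozyme and model lung was 1.32 ± 0.74 (adjusted p = 0.317), and without nanozyme replicate 2 it was 2.16 (adjusted p = 0.0284). It was smaller without model replicate 2, at 0.82 (adjusted p = 0.589), and without nanozyme replicate 1, at 0.76 (adjusted p = 0.652).

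Fbln1 encodes fibulin-1, a component of elastic fibres and basement membranes. Its level was 20.1, 15.8 and 23.0 FPKM in nanozyme lung, against 18.7, 6.78 and 11.0 FPKM in model lung and 23.3, 22.6 and 24.1 FPKM in normal lung. The model values were all under the normal ones and varied 2.76-fold among themselves, against 1.06-fold in normal lung. Fbln1 fell in model vs normal lung (-0.99 ± 0.30, adjusted p = 0.0287), and the call ended with a 2-fold minimum, with equal column sums (adjusted p = 0.0588) and when model replicate 2, model replicate 3 or any 1 of the normal replicates was left out (adjusted p from 0.0589 to 0.0807). The estimate for nanozyme vs model lung was 0.74 ± 0.30 (adjusted p = 0.202), and 0.41 without model replicate 2.

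Efemp1 encodes fibulin-3, an extracellular glycoprotein related to fibulin-5. It had 61.1, 26.2 and 53.8 FPKM in nanozyme lung, against 34.0, 17.6 and 32.0 FPKM in model lung and 47.0, 56.9 and 53.9 FPKM in normal lung. Nanozyme replicates 1 and 3 were above all model values and nanozyme replicate 2 was among them. The change was 0.70 ± 0.34 in nanozyme vs model lung (adjusted p = 0.256) and -0.94 ± 0.34 in model vs normal lung (adjusted p = 0.0539). Without nanozyme replicate 2 both passed, at 1.07 (adjusted p = 0.0247) and -0.94 (adjusted p = 0.0130). Without model replicate 2 they were 0.41 (adjusted p = 0.509) and -0.65 (adjusted p = 0.157). The first was 0.47 without nanozyme replicate 1, where the second also passed (adjusted p = 0.0480).

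Fbln2, encoding fibulin-2, was the least abundant of the 10 in each group. It had 9.59, 1.22 and 2.93 FPKM in nanozyme lung, against 2.51, 1.70 and 2.49 FPKM in model lung and 5.11, 3.77 and 4.67 FPKM in normal lung. The nanozyme libraries spanned 7.83-fold, with replicate 1 above and replicate 2 under every other library. The change was -0.77 ± 0.48 in model vs normal lung (adjusted p = 0.222) and 0.50 ± 0.48 in nanozyme vs model lung (adjusted p = 0.550). Without nanozyme replicate 1 the first was called at the same size (adjusted p = 0.0335) and the second was -0.12, while without nanozyme replicate 2 the second was 1.01 (adjusted p = 0.0937).

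**Figure D2:**
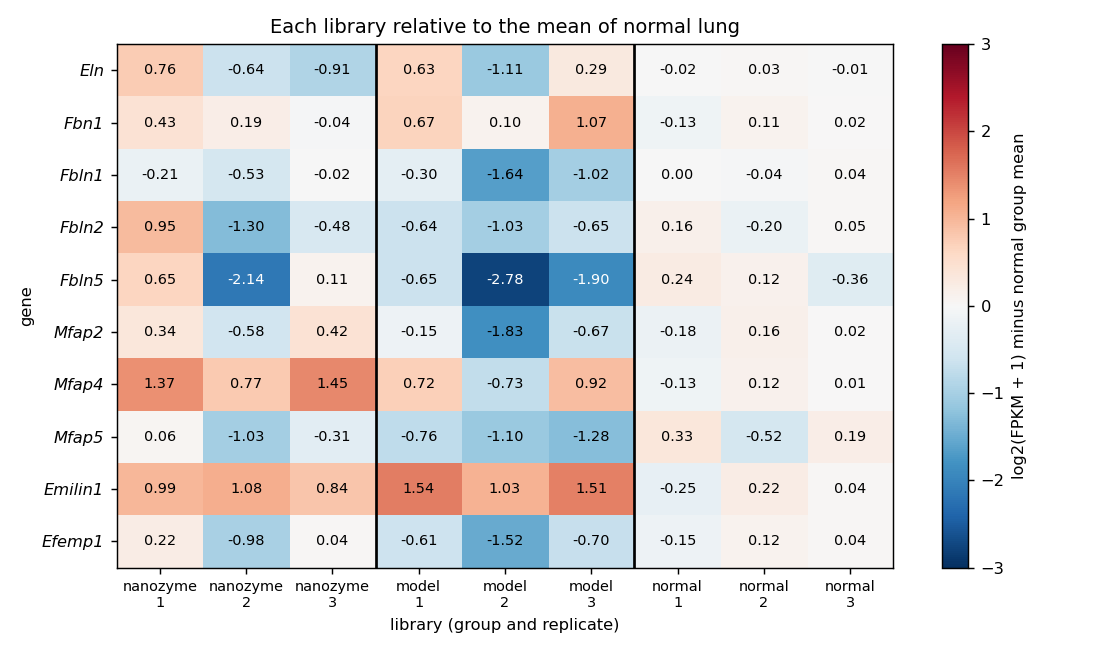
Difference of log2(FPKM + 1) of each elastic fibre gene (rows) from the mean of the normal group, in each of the 9 libraries (columns, nanozyme, model and normal from left to right). Red is above and blue under the normal mean. Emilin1 is red in all 6 nanozyme and model columns, and Fbln5 is at -2.14 in nanozyme replicate 2 and -2.78 in model replicate 2.

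Values of the 10 genes differed between libraries of 1 group. Nanozyme replicate 2 lay within the range of the model libraries for 9 of the 10 genes and outside the range of the normal libraries for all 10. Nanozyme replicate 1 was above the model range for 8 of the 10, and nanozyme replicate 3 for 7. Over all tested genes, nanozyme replicate 2 was within the model range at 64.9% and outside the normal range at all but 17.4%, and nanozyme replicates 1 and 3 were above the model range at 40.7% and 42.9%. In the model group, replicate 2 had the lowest value for 9 of the 10 genes, against 48.1% of tested genes. Relative to the normal mean, the median of the 10 genes was 0.54, -0.61 and 0.01 on the log2 scale in nanozyme replicates 1, 2 and 3, against -0.23, -1.11 and -0.66 in the model replicates. Without nanozyme replicate 2 and model replicate 2 together, an alternative chosen after seeing the data, the numbers of genes called were 5 in nanozyme vs model, 7 in model vs normal and 2 in nanozyme vs normal lung, against 22.2%, 45.6% and 19.7% of tested genes.

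The order of the levels was similar at its ends in the 3 groups. Mfap4 came first and Eln second in each, and Fbln2 came last. In normal lung, Mfap4 averaged 301 ± 27.0 and Eln 136 ± 2.48 FPKM, followed by Efemp1 at 52.6 ± 5.06 FPKM. Mfap5, Fbln5 and Mfap2, at 39.9 ± 11.8, 33.7 ± 7.25 and 33.7 ± 4.11 FPKM, came next and did not differ beyond their ranges, and Efemp1 and Mfap5 overlapped as well. Fbln1 followed at 23.3 ± 0.73 FPKM, and Emilin1 and Fbn1, at 13.9 ± 2.40 and 12.3 ± 1.10 FPKM, overlapped. In model lung Emilin1 held the third place at 37.5 ± 7.12 FPKM, with a range that overlapped that of Efemp1 below it, and Mfap4 and Eln overlapped there. In nanozyme lung Mfap4 and Eln, at 706 ± 167 and 129.9 ± 87.8 FPKM, did not overlap, while the ranges of Efemp1, Mfap2, Fbln5, Mfap5 and Emilin1, in that order of means, each overlapped the next.

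Likeness of pattern was measured as the root mean square difference of centred log2(FPKM + 1) over the 9 libraries. The closest pair among the 10 was Mfap2 and Efemp1, at 0.24, and the farthest was Fbln5 and Emilin1, at 1.55. The promoters of this pair and of Fbln1, whose nearest gene was also Mfap2 at 0.25, are shown because these 3 genes differed least in pattern.
Mfap2, plus strand, chr4:141010174-141010473: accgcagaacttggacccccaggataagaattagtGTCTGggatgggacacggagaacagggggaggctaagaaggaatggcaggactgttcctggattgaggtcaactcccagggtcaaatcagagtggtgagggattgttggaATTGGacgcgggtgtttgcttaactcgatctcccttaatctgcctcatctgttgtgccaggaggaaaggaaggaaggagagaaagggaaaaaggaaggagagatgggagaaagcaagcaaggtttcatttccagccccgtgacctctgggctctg
Efemp1, plus strand, chr11:28852955-28853254: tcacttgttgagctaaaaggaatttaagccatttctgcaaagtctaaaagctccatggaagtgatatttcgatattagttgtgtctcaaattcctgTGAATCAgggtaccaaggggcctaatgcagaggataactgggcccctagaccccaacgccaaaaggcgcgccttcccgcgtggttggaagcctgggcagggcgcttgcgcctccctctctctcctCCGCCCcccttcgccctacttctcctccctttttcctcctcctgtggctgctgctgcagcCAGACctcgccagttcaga
Fbln1, plus strand, chr15:85205699-85205998: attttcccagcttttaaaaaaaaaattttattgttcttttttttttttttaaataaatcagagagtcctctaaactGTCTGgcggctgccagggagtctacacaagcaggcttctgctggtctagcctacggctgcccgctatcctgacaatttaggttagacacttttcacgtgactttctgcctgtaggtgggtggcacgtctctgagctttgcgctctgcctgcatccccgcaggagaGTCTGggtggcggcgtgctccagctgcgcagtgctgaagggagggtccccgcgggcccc
All 3 windows hold CAGAC, read on the other strand as GTCTG in Mfap2 and Fbln1. CAGAC stands in 49.6% of all windows. Mfap2 also holds CCAAT and Efemp1 GGGCGG, both on the other strand, which stand in 37.4% and 35.7% of all windows. Efemp1 holds TGANTCA as well, which stands in 7.81% of all windows. Of the 7 elastic fibre genes with a window, 5 hold CAGAC, 4 GGGCGG, 3 CCAAT and 1 TGANTCA, and 0 hold TATAAA, which stands in 13.6% of all windows. Eln, Mfap4 and Mfap5 are not shown.

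Outside the set, Adm, encoding the vasodilator peptide adrenomedullin, had the pattern nearest to Eln, at 0.15 against a median of 0.66 over all genes compared. Adm had 14.6, 7.27 and 5.14 FPKM in nanozyme lung, against 16.1, 4.98 and 11.5 FPKM in model lung and 9.65, 9.25 and 9.43 FPKM in normal lung. As with Eln, replicate 1 was high in the nanozyme group, replicate 2 low in the model group and the normal libraries close together. Fam219a, Foxs1, Afap1l2 and Stau1 followed, at 0.28 to 0.34. Nearest to Fbln5 were Bex2, Itga8, Wnt10b, Chrdl1 and Igfbp5, at 0.36 to 0.44 against a median of 1.12.

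Ratios were also compared within each library. The ratio of Eln to Fbn1 was 13.7, 6.13 and 6.02 in nanozyme lung, against 10.6, 4.72 and 6.20 in model lung and 12.1, 10.4 and 10.9 in normal lung. On the log2(FPKM + 1) scale it averaged 2.69 ± 0.60 in model and 3.37 ± 0.10 in normal lung (exact permutation test, two-sided, p = 0.2, adjusted p = 0.686 over 12 tests). The ratio of Fbln5 to Efemp1 was 0.862, 0.257 and 0.668 in nanozyme lung, against 0.612, 0.225 and 0.254 in model lung and 0.839, 0.634 and 0.474 in normal lung. Nanozyme replicate 2 had a ratio near those of model replicates 2 and 3. None of the 12 ratio comparisons, over 4 ratios and 3 pairs of groups, passed the exact permutation test, whose smallest possible p with 3 against 3 is 0.1.

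**Figure D3:**
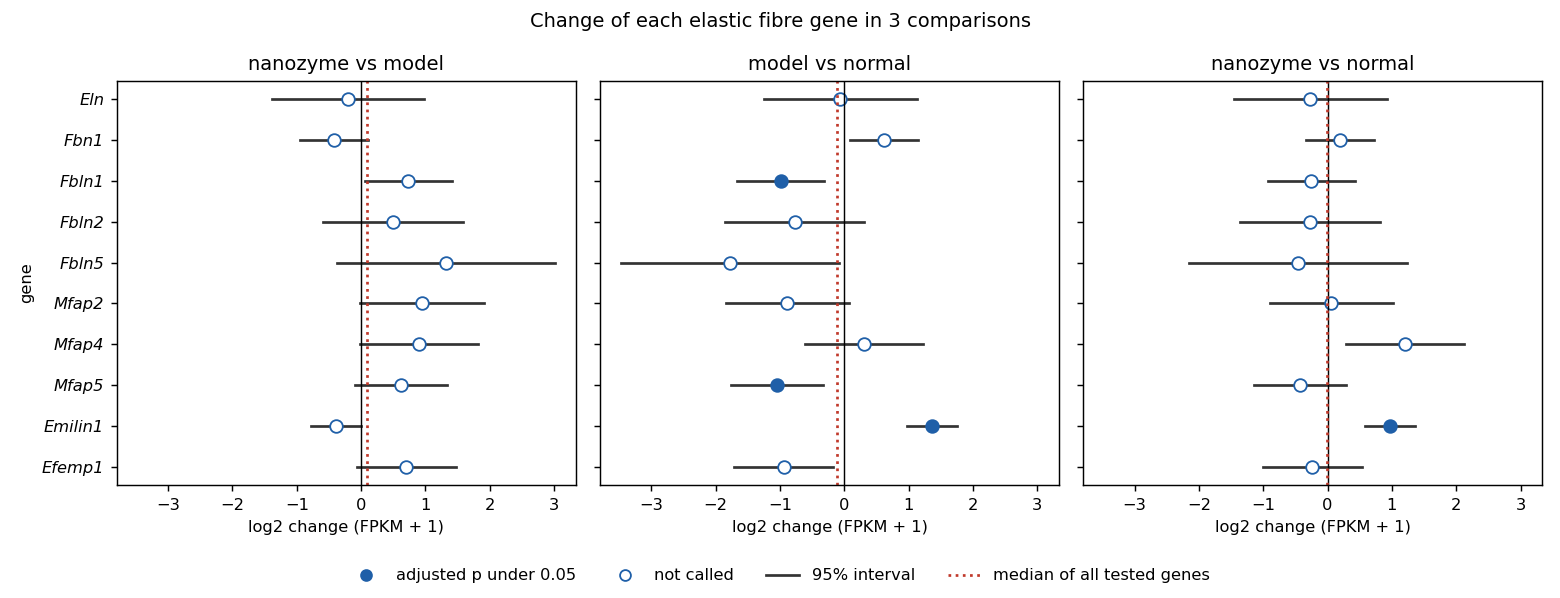
Change of log2(FPKM + 1) of each elastic fibre gene in nanozyme vs model, model vs normal and nanozyme vs normal lung, with 95% intervals from limma. Filled points have an adjusted p under 0.05, and the dotted line is the median change of all 14540 tested genes. Filled points are Fbln1, Mfap5 and Emilin1 in model vs normal lung and Emilin1 in nanozyme vs normal lung.

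Genes that build or cut elastic fibres were followed in 5 lists. For the counts in these lists, 17.4% of all tested genes were called higher and 22.7% lower in model vs normal lung. In nanozyme vs normal lung the shares were 8.39% and 5.50%. Of 16 relatives of the set and latent TGF-beta binding proteins, 12 were tested. Of these 1 rose and 2 fell in model vs normal lung, 1 rose and 0 fell in nanozyme vs normal lung, and 0 were called in nanozyme vs model lung, as was so for all 5 lists. Fbn2, Fbln7, Emilin3 and Adamts6 were under 1 FPKM in every library. Emilin2, a relative of Emilin1, had 17.03, 20.7 and 8.999 FPKM in nanozyme lung, against 25.1, 23.0 and 23.9 FPKM in model lung and 2.497, 2.36 and 2.43 FPKM in normal lung. It rose by 2.87 ± 0.25 in model (adjusted p = 0.000243) and by 2.20 ± 0.25 in nanozyme (adjusted p = 0.00145) relative to normal lung. Ltbp4, which binds latent TGF-beta and fibulins and is needed for lung elastic fibres in mice, had 65.6, 26.1 and 71.1 FPKM in nanozyme lung, against 35.2, 7.36 and 25.4 FPKM in model lung and 62.4, 81.7 and 71.4 FPKM in normal lung. Ltbp4 fell in model vs normal lung (-1.86 ± 0.55, adjusted p = 0.0279), as did Hmcn1, encoding hemicentin-1 (-1.19 ± 0.40, adjusted p = 0.0429).

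The lysyl oxidases cross-link elastin and collagen, and all 5 were tested. Of these 2 rose and 0 fell in model vs normal lung, and 0 were called in the nanozyme comparisons. Lox had 20.1, 26.1 and 14.5 FPKM in nanozyme lung, against 41.8, 37.2 and 42.0 FPKM in model lung and 18.4, 18.7 and 18.1 FPKM in normal lung. Every model value was above every nanozyme and every normal value. Lox rose by 1.09 ± 0.18 in model vs normal lung (adjusted p = 0.00296), and its change in nanozyme vs model lung was -0.99 ± 0.18 (adjusted p = 0.181). Loxl1, which mice need to maintain elastic fibres and which fibulin-5 tethers, changed by -0.27 ± 0.26 in model vs normal lung (adjusted p = 0.438), and Loxl3 rose (0.60 ± 0.13, adjusted p = 0.00742).

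Of 11 proteases that can degrade elastin, 8 were tested. Elane and Ctsg, encoding neutrophil elastase and cathepsin G, and Mmp7 did not pass the filter. In model vs normal lung 6 rose and 0 fell, against 17.4% and 22.7% of all tested genes. In nanozyme vs normal lung 5 rose and 0 fell, against 8.39% and 5.50%. Prtn3 was under 1 FPKM in all normal libraries and was tested only through its levels in the other groups. Without it, 5 of 7 rose in model vs normal lung. The 6 were Prtn3 and Mmp9, encoding neutrophil proteinase 3 and gelatinase B, Mmp12, encoding macrophage elastase, the membrane protease gene Mmp14, and the cathepsin genes Ctsk and Ctss. Mmp2 and Ctsl were not called there, at -0.27 ± 0.25 and -0.02 ± 0.10 (adjusted p = 0.420 and 0.875). In nanozyme vs normal lung the 5 were Mmp9, Mmp12, Mmp14, Ctss and again Prtn3, with the same limit of the filter. Mmp9 had 21.4, 42.7 and 20.6 FPKM in nanozyme lung, against 53.3, 68.8 and 59.3 FPKM in model lung and 1.92, 1.62 and 2.04 FPKM in normal lung. Its rise was 4.42 ± 0.25 in model (adjusted p = 7.77e-05) and 3.28 ± 0.25 in nanozyme (adjusted p = 0.000362) relative to normal lung. Mmp12 was low, at 2.29 to 4.97 FPKM in nanozyme, 3.06 to 5.05 FPKM in model and 1.03 to 1.43 FPKM in normal lung, and rose by 1.23 ± 0.25 in model vs normal lung (adjusted p = 0.00625). Mmp7 was listed at 0 in every library.

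Of 10 protease inhibitors 6 were tested, and Slpi and Timp1 rose and Cst3 fell in model vs normal lung. Slpi, an inhibitor of neutrophil elastase, had 149, 224 and 81.4 FPKM in nanozyme lung, against 192, 267 and 173 FPKM in model lung and 12.7, 14.4 and 13.9 FPKM in normal lung. It rose by 3.83 ± 0.33 in model (adjusted p = 0.000242) and by 3.26 ± 0.33 in nanozyme (adjusted p = 0.000951) relative to normal lung. Timp1, an inhibitor of matrix metalloproteinases, had 16.1, 167 and 24.1 FPKM in nanozyme lung, against 188, 288 and 225 FPKM in model lung and 4.92, 6.70 and 6.43 FPKM in normal lung. It rose by 5.05 ± 0.72 in model vs normal lung (adjusted p = 0.00170), and its change in nanozyme vs model lung was -2.47 ± 0.72 (adjusted p = 0.181). Nanozyme replicate 2 was again nearest to the model libraries. Of 10 elastin and microfibril receptors 9 were tested, and 6 rose and 0 fell in model vs normal lung, among them Ctsa and Neu1 of the elastin receptor complex (1.20 ± 0.18 and 0.92 ± 0.18, adjusted p = 0.00187 and 0.00555).

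**Figure D4:**
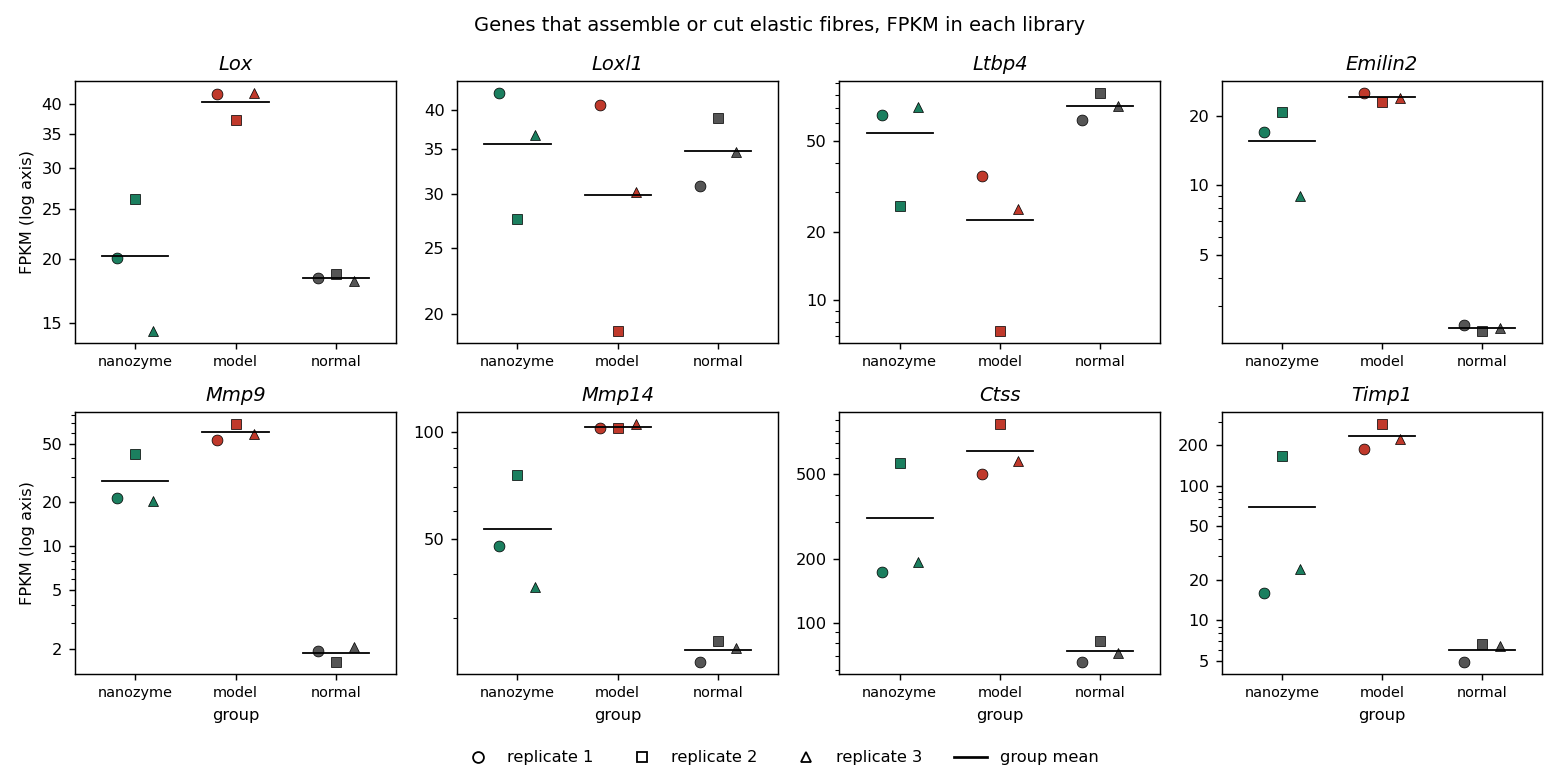
FPKM (log axis, a separate scale for each gene) of 8 genes that assemble or cut elastic fibres, in the 9 libraries grouped as nanozyme, model and normal lung. Points are single libraries and lines are group means. Lox is highest in the 3 model libraries, and Mmp9, Ctss and Timp1 in nanozyme replicate 2 lie nearer to the model libraries than those of the other nanozyme replicates.

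In whole lung, fewer cells of a type and less RNA per cell cannot be told apart. For the marker counts below, 17.4% of all tested genes were called higher and 22.7% lower in model vs normal lung. In nanozyme vs normal lung these shares were 8.39% and 5.50%. The summed FPKM of 10 alveolar fibroblast markers was 594 to 2517 in nanozyme, 192 to 666 in model and 1672 to 2354 in normal lung, with 0 of the 10 higher and 5 lower in model vs normal lung. The lowest library of each of the first 2 groups was replicate 2. Much of this sum was 1 gene, Inmt, at 407 to 2007, 90.1 to 439 and 1319 to 1863 FPKM in nanozyme, model and normal lung. Pdgfra, Gpc3, Wnt2, Fgfr4 and Slc7a10 were not called in model vs normal lung. The sum of 10 adventitial fibroblast markers was 220 to 459 in nanozyme, 196 to 218 in model and 318 to 389 in normal lung. Relative to normal lung, 4 of them were lower in model and 1 was lower in nanozyme. Much of the sum in normal lung was Clec3b and Dcn. Dcn had 46.0 to 99.4 FPKM in model and 87.9 to 149 FPKM in normal lung and was not called. Col14a1, Cd248, Il33, Ccl11 and Gli1 were not called in model vs normal lung either. Of these, Il33 and Ccl11 had estimates above 0 (0.81 and 0.18). The sum of 10 smooth muscle and myofibroblast markers was 121 to 268 in nanozyme, 108 to 171 in model and 311 to 489 in normal lung, with 6 lower in model and 5 lower in nanozyme relative to normal lung. Pericyte markers, 7 in number, summed to 67.0 to 127, 37.6 to 79.3 and 92.3 to 107 FPKM in nanozyme, model and normal lung. In model vs normal lung 2 were lower, Higd1b and Abcc9. Abcc9 was under 1 FPKM in all model libraries and was tested only through its levels in the other groups.

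Markers of other cells differed as well. Of the 6 lung epithelial markers, whose sums are given above, 3 were lower in model and 1 in nanozyme relative to normal lung. Sftpa1, Ager and Foxj1 were not called in either. The sum of 9 endothelial markers was 648 to 1060 in nanozyme, 346 to 723 in model and 850 to 979 FPKM in normal lung, with 2 lower in model vs normal lung. The sum of 6 neutrophil markers was 1092 to 3246 in nanozyme, 2396 to 3130 in model and 35.5 to 45.0 in normal lung, with all 6 higher in both comparisons with normal lung, of which Cxcr2 and Mmp8 were under 1 FPKM in all normal libraries. The sum of 8 macrophage markers was 582 to 875 in nanozyme, 902 to 1152 in model and 138 to 149 in normal lung, with 7 higher in both. No marker of these 8 lists was at 0 in every library, and their part in the changes of the elastic fibre genes was not tested. The alveolar and the adventitial fibroblast sums of every model library were under those of every normal library, while the markers Pdgfra and Dcn overlapped. Whether the lower sums bear on Emilin1, Fbln1, Mfap5 or Ltbp4 was not tested.

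**Figure D5:**
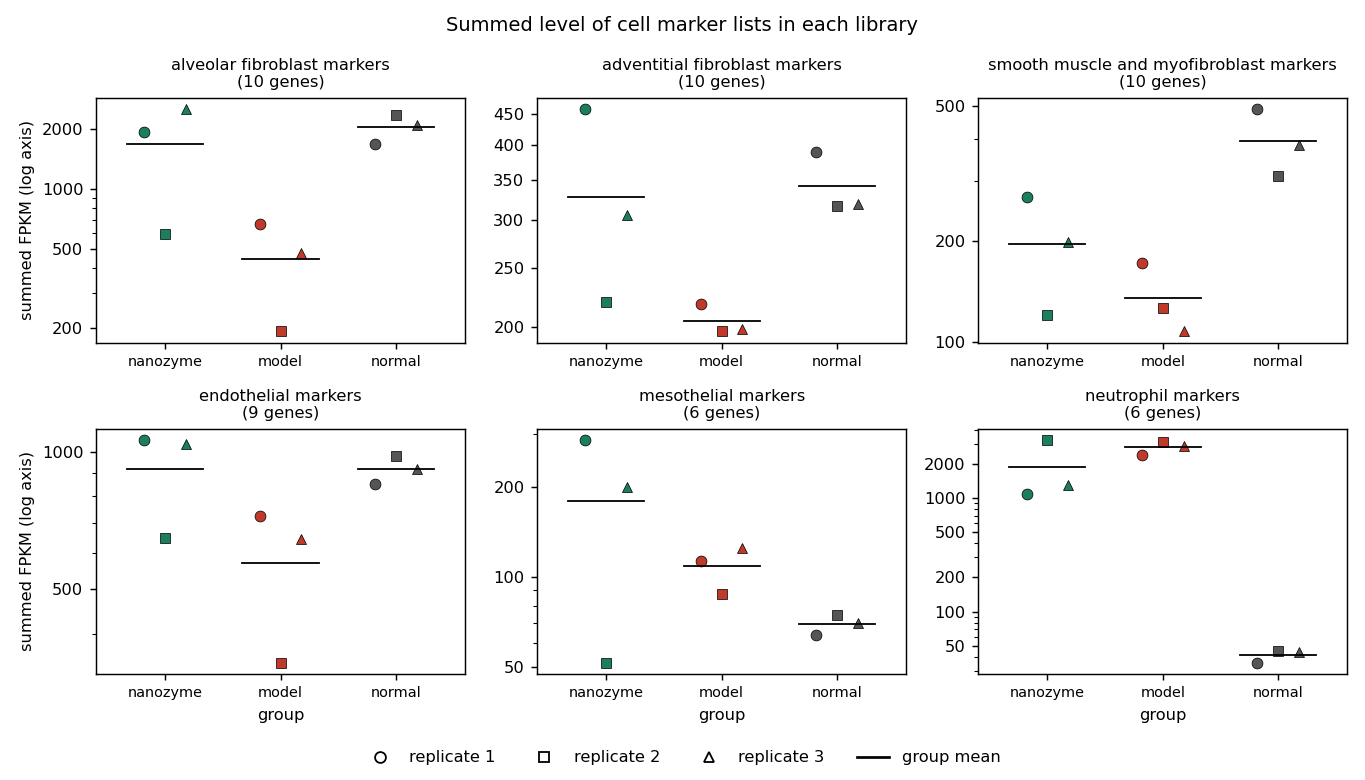
Summed FPKM (log axis, a separate scale for each list) of 6 cell marker lists in the 9 libraries, grouped as nanozyme, model and normal lung. Points are single libraries and lines are group means. The alveolar fibroblast sum of nanozyme replicate 2, 594 FPKM, of which Inmt alone is 407 FPKM, lies within the range of the model libraries. The neutrophil sum of this library, 3246 FPKM, lies above that range.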

How the data were processed

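The authors deposited 1 table of FPKM values with 1 column per library, mapped to samples by the library names in the labels. RNA came from TRIzol extracts and was enriched for mRNA on oligo(dT) beads, per the labels' protocols. Alignment used HISAT2 and GRCm38, per the submitters' processing notes. The annotation, counting tool, strand setting and filters are not given in the sources used here. Of 25526 names, 21437 matched GENCODE vM21 symbols. Whole-read steps were looked for in low values and not found (no bin of 0.01 log2 held more than 2.25% of the ratios between libraries), so depth and counting error are unknown and each value's precision rests on 3 libraries a group.

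Computed here: log2(FPKM + 1), limma 3.58.1 in R 4.3.3 with 1 coefficient per group, all 9 libraries, an intensity trend and two-sided tests, and exact permutation tests of ratios. The step was tested on simulated data that varied independently between genes and libraries. That test did not probe shifts shared by many genes of a library. Annotation and figures used Python 3.11.15 and matplotlib 3.10.9. The 10 genes, the lists, the alternatives and the rule for named genes (all 10, pathway genes called or with a mean of at least 5 FPKM, of which a selection is given, and nearest patterns for Eln and the gene with the widest group means) were chosen with earlier results of these data known. For promoters, the entry nearest to the GENCODE gene start was used, and 7 of the 10 genes matched by symbol. All columns were mapped.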

Additional observations from a re-analysis of the deposited data

How the results depend on the processing

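Of 657 combinations of a gene's change and an alternative (30 changes of the 10 genes), 586 kept direction and side of the threshold, 38 gained a call, 12 lost one and 21 changed sign. The number of elastic fibre genes called in model vs normal lung, 3, was 6 with only the 2 groups compared (43.1% of all tested genes called, against 40.1%), 5 with quantile normalization (40.9%), 6 with sample weights (53.1%, with an estimation that stopped short of its tolerance), 7 without nanozyme replicate 2 and model replicate 2 together (45.6%), and 1 to 5 with each library left out in turn. The replicate numbers were not taken as pairs, since deviations of same-numbered libraries correlated at -0.331 to 0.227; with the replicate block the count was 5 (38.7% of all tested genes), and the block left the counts of the other comparisons at 0 and 1. In nanozyme vs model lung the count of 0 was 2 with sample weights, 5 without both replicates 2, and 0 to 3 with each library left out. In nanozyme vs normal lung the count of 1 was 0 with a 2-fold minimum, 2 with the 2 groups compared, with sample weights and without both replicates 2, and 1 to 2 with each library left out. Over all genes, with each library left out, the count of 0 in nanozyme vs model lung ran from 0 to 3167, that of 5824 in model vs normal lung from 3754 to 6546 and that of 2020 in nanozyme vs normal lung from 734 to 2264. A 2-fold minimum gave 0, 2390 and 953. With sample weights they were 3034 for nanozyme vs model and 5745 for nanozyme vs normal, without both replicates 2 it was 3156 for nanozyme vs model, with no filter 4, and with a mean of at least 5 FPKM 1285 for nanozyme vs normal.

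Sign changes concerned estimates that were not called. Eln in model vs normal lung was 0.0147 with equal column sums, 0.0836 with median-of-ratios scaling, 0.29 with sample weights, 0.46 without both replicates 2, and -0.41 to 0.46 with each library left out. Mfap4 there ran from -0.0024 to 0.82. In nanozyme vs model lung Eln ran from -0.73 to 0.14 and Fbln2 from -0.12 to 1.01. In nanozyme vs normal lung Eln ran from -0.78 to 0.0569, Efemp1 from -0.47 to 0.13, Fbln2 from -0.89 to 0.23, Fbln5 from -1.01 to 0.38 and Mfap2 from -0.12 to 0.38. Without both replicates 2 these were 0.13 for Efemp1, 0.23 for Fbln2 and 0.38 for Fbln5, Fbln5 was 0.39 with sample weights, and Mfap2 was -0.0332 when scaled without the 100 most abundant genes. With each library left out, the log2 ratio of Mfap5 to Mfap2 ran from -0.61 to 0.0919 in model vs normal and -0.54 to 0.13 in nanozyme vs model lung, Eln to Fbn1 from -0.18 to 0.54 in nanozyme vs model, Fbln5 to Efemp1 from -0.55 to 0.26 and Loxl1 to Eln from -0.0747 to 0.66 in nanozyme vs normal lung. The causes of these differences were not tested. Depth is unknown, and 3 libraries a group limit the precision.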

Other observations

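The summed level of mesothelial transcripts, which mark the pleural surface, was highest in nanozyme replicates 1 and 3. The summed FPKM of 6 mesothelial markers was 286, 51.6 and 199 in nanozyme replicates 1, 2 and 3, against 112, 87.2 and 125 in the model replicates and 63.9, 74.2 and 69.7 in the normal replicates. This sum was lowest in nanozyme replicate 2. Single markers differed from the sum. Wt1 had 2.77 FPKM in model replicate 3 against 1.37 FPKM in nanozyme replicate 3. Msln had 24.7 FPKM in nanozyme replicate 2 against 16.8 to 23.2 FPKM in normal lung. In model vs normal lung 1 of the 6 was called higher, against 17.4% of all tested genes, and 0 were called in the nanozyme comparisons.

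Cardiac muscle transcripts, which the walls of mouse pulmonary veins also contain, varied among libraries of 1 group. The sum of 6 markers was 122, 15.95 and 22.5 FPKM in nanozyme lung, against 36.1, 56.3 and 9.32 FPKM in model lung and 603, 110 and 334 FPKM in normal lung. In model vs normal lung 5 of the 6 were lower, against 22.7% of all tested genes. Of 10 airway cartilage markers 8 were under 1 FPKM in every library and 4 of these, Acan, Matn1, Snorc and Cnmd, were listed at 0 throughout. Chad, the 1 marker tested, had 16.4 to 22.9, 10.9 to 40.2 and 39.6 to 84.4 FPKM in nanozyme, model and normal lung. By limma its change was -1.25 in model (adjusted p = 0.0538) and -1.58 in nanozyme (adjusted p = 0.0506) relative to normal lung. The part of vessel or airway content in the levels of the elastic fibre genes was not tested.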
